A study of Homo sapiens with 16 samples.

Results

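UACC62R is a human melanoma cell line that was selected from the parental line UACC62P by 2 months of culture with 2 uM vemurafenib, which blocks mutant BRAF. The comparison here is between UACC62R cultures given 10 uM CCG-222740 for 6 h and cultures given the same dose for 2 h, over all genes, so every library of the comparison comes from treated cells. It holds 4 of the 16 libraries of the study, 2 at each time, chosen by their labelled line and time. The remaining libraries are untreated UACC62R (0 h), UACC62R at 24 h, and UACC62P at the same 4 times. The labels state that the untreated UACC62R cells stayed in vemurafenib, and no source used here says so for the treated ones. The labels also name a vehicle control, but no vehicle library was used here, and whether the replicates came from different cultures is not stated. The p-values therefore describe the spread among these libraries, which may be technical. Vehicle, handling and time in culture differ between 2 h and 6 h together with the length of exposure and cannot be told apart from it.

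CCG-222740 is known as an inhibitor of transcription through SRF and its coactivators MRTFA and MRTFB, which respond to the actin cytoskeleton. In a time course of this kind, immediate early genes such as EGR1 usually peak and decay first, genes of metal and protein stress follow through the factors MTF1 and HSF1, and slow classes such as matrix and cell cycle genes move later. MTF1 binds metal response elements in front of the metallothionein genes when free zinc rises, HSF1 binds heat shock elements when proteins misfold, and SRF binds CArG boxes.

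The 4 libraries held 27.0 to 31.0 M reads in genes (25.9 to 33.3 M over all 16). The share of reads that were not aligned was 16.4 and 16.9% in the 2 h libraries and 9.76 and 9.33% in the 6 h libraries, so it moved with time, and its part in the results was not tested. Melanocyte genes were low in all 4 libraries and those of dedifferentiated melanoma were plentiful. Summed over 18 melanocyte genes, the 2 h libraries held 160.0 and 160.6 CPM (counts scaled to a common library size) and the 6 h libraries 169.3 to 172.7 CPM, with 10 of the 18 under 1 CPM and CDH1 at 0. The 19 genes of the dedifferentiated, invasive melanoma state were all read, at sums of 24000 to 24430 CPM at 2 h and 24070 to 24930 CPM at 6 h. Of 19 genes marking epithelium, endothelium or blood, 17 were under 1 CPM, and CDH1, PECAM1, CD3E, LYZ and HBB were at 0 in all 4 libraries. The 19 summed to 75.4 to 89.6 CPM at 2 h and 83.8 to 94.8 CPM at 6 h. One library of the parental line, labelled UACC62P 2 h replicate 1, had the expression pattern of UACC62R and was left out of the fit of 15 libraries used below. With it, in 16 libraries, no gene passed the test between 2 h and 6 h (edgeR; 399 had an unadjusted p under 0.05).

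The steps from 2 h to 6 h were small, and how many genes passed the test depended on whether same-numbered libraries were treated as pairs. Over 20280 genes, edgeR's quasi-likelihood test placed 0 genes higher (0%) and 2 lower (0.00986%) at 6 h at a Benjamini-Hochberg adjusted p under 0.05, with 1358 at an unadjusted p under 0.05. DESeq2 called 31 higher and 30 lower. With the replicate number as a block, edgeR called 77 genes higher (0.38% of all tested) and 71 lower (0.35%). The block lowered the common dispersion from 0.00985 to 0.00425. Below, "rose" and "fell" mean called with that block unless the test without it is named. The size of the change had a median of 0.50 on the log2 scale among those that rose and -0.42 among those that fell. Only 4 of the 77 and none of the 71 passed 2-fold, and these 4 were MT1G and the pseudogenes MT1P3, PAICSP4 and PPIAP29, named after their values were seen. Of the 77, 69 were protein-coding genes and 7 were processed pseudogenes, and of the 71, 69 were protein coding. Over all genes, both 6 h libraries lay above both 2 h libraries for 18.1% and below them for 17.7%, so a gap between the groups was common.

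All 148 had the same sign in the 5 other fits compared over the whole set, namely edgeR and DESeq2 without the block, and edgeR with the block in 8 UACC62R or 11 treated libraries or scaled by library size alone. These fits hold the same 2 h and 6 h libraries, so the shared sign is no independent support. Of them, 60 were also called by DESeq2 without the block, and 147 with the block in the 8 UACC62R libraries alone, where 615 genes were called in all. The count fell when 1 library was left out of the fit with the block. It was 13 without 6 h replicate 1, 50 without 6 h replicate 2, 43 without 2 h replicate 1 and 32 without 2 h replicate 2. Of 65 genes taken for naming that were called with the block, all kept their sign in these 4 fits, 8 kept their call in each of them (MT1G, SLC39A10, ITGA5, ANGPTL2, EGR1, NAGLU, CHPF2 and PXK) and 22 in none, among them MT1X, ENTREP1, HSPA8, HSPE1, HSPA4L and CHORDC1. Many of the 65 were chosen for having no overlap between the groups, which makes a kept sign likely. The plot of 22 genes with large changes gives the ratio in each same-numbered pair.

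**Figure D1:**
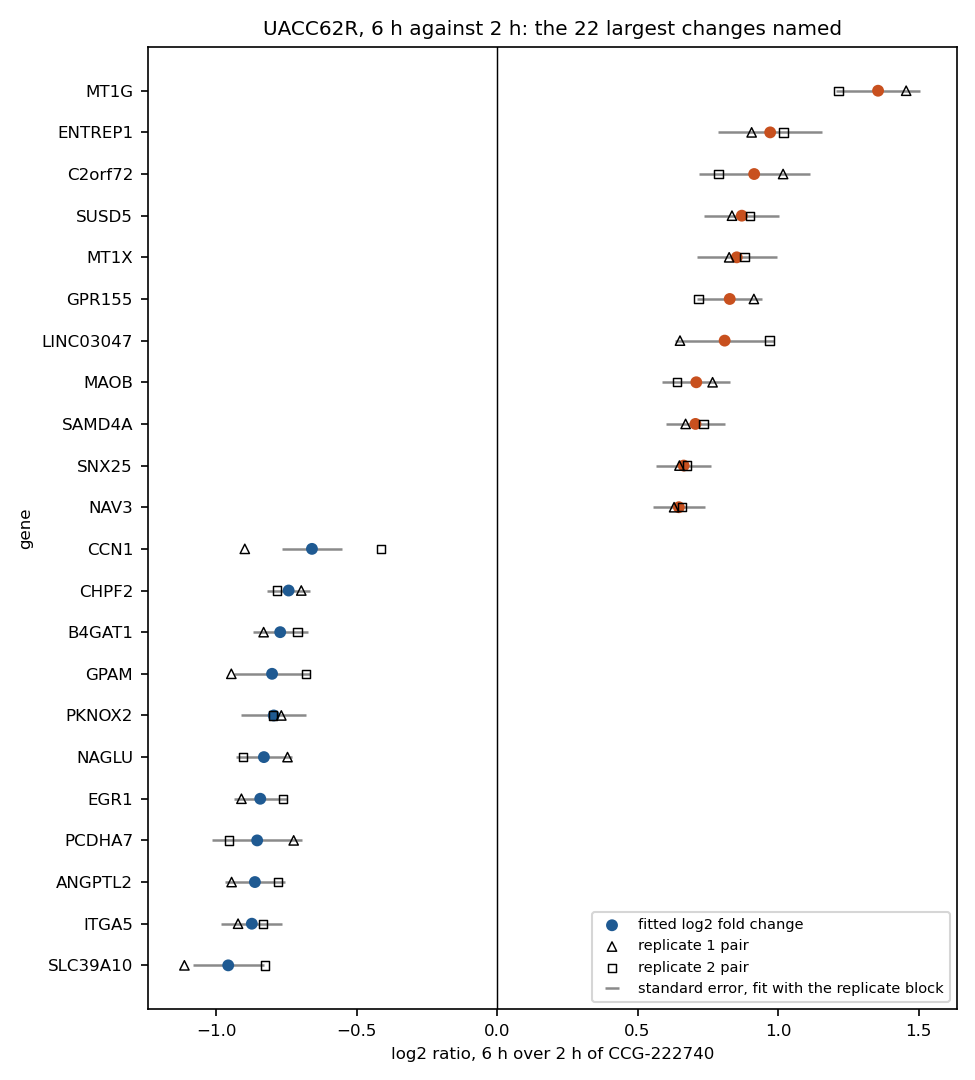
Log2 ratio of 6 h over 2 h in UACC62R for the 11 genes with the largest rise (orange) and the 11 with the largest fall (blue) among the named genes called with the replicate block. Circles are fitted log2 fold changes with their standard error, and triangles and squares are the ratios within replicates 1 and 2, which share the sign of the fit by the choice of genes without overlap. The fitted values run from 1.36 for MT1G down to -0.96 for SLC39A10.

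Metallothioneins, small cysteine-rich proteins that hold zinc and copper, continued to rise after 2 h, while no zinc transporter on the list rose. MT1X (ENSG00000187193) stood at 314.9 and 274.7 CPM in the 2 h libraries and at 558.4 and 505.8 CPM at 6 h. Both 6 h libraries lay above both 2 h libraries. The log2 fold change was 0.85 (SE 0.14, adjusted p = 0.00629 with the block and 0.128 without it, n = 2 against 2). With any 1 of the 4 libraries left out, the log2 fold change of MT1X was 0.77 to 0.93 and its adjusted p 0.0518 to 0.18, so it was no longer called. MT1G (ENSG00000125144) went from 12.5 and 9.04 CPM to 34.4 and 21.1 CPM, with no overlap. Its log2 fold change of 1.36 (SE 0.15, adjusted p = 0.000482) was the largest among the named genes that rose, pseudogenes aside. The pseudogenes MT1P3, PAICSP4 and PPIAP29 rose by 1.60, 1.46 and 2.77. MT2A (ENSG00000125148), the most widely expressed member of the family, went from 1704 and 1880 CPM to 2631 and 2677 CPM, again without overlap (log2 fold change 0.57, SE 0.08, adjusted p = 0.00265). These genes have near-identical copies and pseudogenes, and reads that aligned to several places were not counted, so their levels are uncertain.

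The zinc exporter SLC30A1, which MTF1 also controls, stood at 229 and 235.8 CPM at 2 h and at 199.6 and 252.8 CPM at 6 h. Its groups overlapped, and the log2 fold change was -0.05 (SE 0.11, adjusted p = 0.926 with the block). At 0 h it had been at 52.0 and 66.2 CPM, so both 6 h libraries were above both untreated ones. The importer SLC39A10 (ENSG00000196950), which brings zinc into the cell, fell from 49.8 and 59.7 CPM to 23.0 and 33.7 CPM. Its 6 h libraries lay below both 2 h libraries, and the log2 fold change of -0.96 (SE 0.13, adjusted p = 0.00126) was the largest fall among the named genes. Of the 14 tested genes in the list of metallothioneins and zinc transporters, 3 rose, 1 fell and 10 did not pass, with a median log2 fold change of -0.01, beside 0.002 for all genes. Of these 4 calls, 2 were left without 2 h replicate 1 or 6 h replicate 1, and 3 without 2 h replicate 2 or 6 h replicate 2.

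The sequences in front of MT1X and MT2A show how densely metal response elements can stand there. Each is the 250 bases before the gene's start in the RefSeq annotation of GRCh38.p14, written 5′ to 3′ on the gene's strand, at chr16:56682220-56682469 (plus strand) for MT1X and chr16:56608334-56608583 (plus strand) for MT2A. The reads themselves were counted on hg19. Capitals mark matches to TGCACNC or TGCGCNC on either strand, 4 for MT1X and 7 for MT2A.
MT1X: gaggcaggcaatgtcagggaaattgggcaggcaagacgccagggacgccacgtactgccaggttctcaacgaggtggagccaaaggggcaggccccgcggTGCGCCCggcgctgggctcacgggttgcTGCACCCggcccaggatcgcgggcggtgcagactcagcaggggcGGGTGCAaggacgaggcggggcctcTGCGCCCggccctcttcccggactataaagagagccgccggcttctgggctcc
MT2A: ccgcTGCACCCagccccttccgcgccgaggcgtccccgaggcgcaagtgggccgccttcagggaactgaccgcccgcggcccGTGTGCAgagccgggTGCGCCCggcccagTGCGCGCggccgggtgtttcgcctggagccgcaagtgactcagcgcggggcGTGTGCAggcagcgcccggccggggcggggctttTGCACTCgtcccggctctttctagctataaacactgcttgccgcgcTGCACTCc
Such a match is a string of letters and no evidence of binding. It was found in the same window of 27 of the 56 genes called higher that have a promoter entry (48.2%), in 18 of 47 called lower (38.3%), in 32.3% of 12577 tested genes and in 24.7% of all 27305 promoters. The promoter of SLC39A10 held none, and MT1G had no promoter entry.

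Most heat shock genes lay slightly higher at 6 h, and some of them rose. HSF1 targets and the chaperone machinery around HSP90 and HSP70 were listed with 18 tested members, of which 5 rose and none fell. The list's median log2 fold change was 0.21, beside 0.002 for all genes. Of the 18, 16 were higher at 6 h in both same-numbered pairs and 1 was lower in both, whereas over all genes 30.1% were higher in both pairs and 29.7% lower. HSPA8 (ENSG00000109971), the constitutive HSP70, had 3731 and 4300 CPM at 2 h and 4537 and 5313 CPM at 6 h. The groups did not overlap, and the log2 fold change was 0.29 (SE 0.05, adjusted p = 0.0056). FKBP4, an HSP90 cochaperone of the immunophilin type, went from 270.2 and 285.8 CPM to 358.5 and 361.9 CPM (log2 fold change 0.37, adjusted p = 0.00244), without overlap. HSPE1, the small subunit of the mitochondrial chaperonin, had 37.8 and 50.3 CPM at 2 h and 54.0 and 64.1 CPM at 6 h (log2 fold change 0.43, adjusted p = 0.00729). HSPA4L, of the HSP110 family, and CHORDC1, another HSP90 cochaperone, rose by 0.51 and 0.35 on the log2 scale, with adjusted p of 0.0388 and 0.00873. None of the 5 passed without the block, where the smallest adjusted p among them was 0.128 for FKBP4. With the block, only FKBP4 was still called without 2 h replicate 1 or 6 h replicate 2, and none of the 5 without 2 h replicate 2 or 6 h replicate 1.

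The strongly inducible members of the list were not among those called. HSPA1A had 168.9 and 242 CPM at 2 h and 273.8 and 338 CPM at 6 h, with no overlap (log2 fold change 0.59, SE 0.18, adjusted p = 0.149). HSPA1B, its near-identical neighbour, had 146.8 and 225.4 CPM and then 171.4 and 252 CPM, with overlapping groups. DNAJB1, the HSP40 partner of HSP70, was the exception to the upward trend, at 409.4 and 497.9 CPM and then 313.7 and 391.1 CPM (log2 fold change -0.37, SE 0.09, adjusted p = 0.06). UBB, a gene for polyubiquitin, which marks damaged proteins for degradation, rose from 183.9 and 182.4 CPM to 248.9 and 212.4 CPM (log2 fold change 0.33, adjusted p = 0.0242). HSPA8, UBB and DNAJB1 were chosen for naming after their values were seen, and UBB has near-identical pseudogenes. HSPA1A and HSPA1B are near-identical copies and HSPA8 and HSPE1 have processed pseudogenes, so these values are uncertain too.

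Of the genes called higher, the promoters of HSPA8, CHORDC1 and ABHD3 held a heat shock element in the 250 bases before the start, searched on both strands as alternating units of GAA and TTC, each 2 bases from the next and 3 in all. That is 3 of 56 (5.36%), beside 0 of 47 called lower, 0.33% of tested genes (42 of 12577) and 0.44% of all promoters. HSPA8 and CHORDC1 are printed here because both rose, and lie on the minus strand of GRCh38.p14, the former at chr11:123062137-123062386 and the latter at chr11:90223050-90223299, with the matches in capitals, 2 for HSPA8 and 3 overlapping ones for CHORDC1.
HSPA8: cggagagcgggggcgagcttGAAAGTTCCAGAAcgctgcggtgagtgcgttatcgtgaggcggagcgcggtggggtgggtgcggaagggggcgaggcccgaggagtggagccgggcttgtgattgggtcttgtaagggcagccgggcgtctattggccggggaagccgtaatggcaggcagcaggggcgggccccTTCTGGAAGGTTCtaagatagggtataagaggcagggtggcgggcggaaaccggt
CHORDC1: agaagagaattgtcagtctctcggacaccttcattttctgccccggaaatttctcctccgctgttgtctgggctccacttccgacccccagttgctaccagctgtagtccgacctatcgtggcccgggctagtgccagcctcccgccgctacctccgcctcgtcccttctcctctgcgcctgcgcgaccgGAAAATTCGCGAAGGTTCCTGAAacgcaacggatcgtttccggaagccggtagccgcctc
The same window of HSPE1, HSPA4L, HSPA1A and UBB held no match, which says only that these letters are not in it. FKBP4 had no promoter entry, so it was not searched.

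Most immediate early genes were lower at 6 h in both pairs, though few passed the test. Of 26 tested, 1 fell, 2 rose and 23 did not pass, and the median log2 fold change was -0.09. In both pairs 16 were lower at 6 h and 5 higher, beside 29.7% and 30.1% of all genes. Other lists leaned the same way, with 17 of 25 mitotic genes, 19 of 31 ribosome biogenesis genes and 14 of 22 ER chaperones lower in both pairs. EGR1 (ENSG00000120738), a zinc finger factor that SRF and its ternary complex partners switch on within minutes of a stimulus, had 60.7 and 43.2 CPM at 2 h and 32.3 and 25.4 CPM at 6 h. The groups did not overlap, and the log2 fold change was -0.84 (SE 0.10, adjusted p = 0.000482 with the block and 0.218 without it). Untreated cells had 21.7 and 19.3 CPM, and at 24 h the level was 33.8 and 24.4 CPM, so the 6 h libraries lay nearer to the untreated cells than to the 2 h libraries. NR4A2, an orphan nuclear receptor, rose from 12.9 and 9.67 CPM to 20.3 and 13.5 CPM (log2 fold change 0.58, adjusted p = 0.0165). BTG2, an antiproliferative gene, rose from 13.96 and 11.5 CPM to 20.4 and 17.0 CPM (log2 fold change 0.56, adjusted p = 0.0358), after a fall from 20.6 and 18.7 CPM at 0 h. The clock gene PER1 had 15.1 and 10.9 CPM at 2 h and 9.84 and 9.04 CPM at 6 h, with no overlap but an adjusted p of 0.285. None of the 16 circadian clock genes tested passed.

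Among the 56 higher and 47 lower genes with a promoter entry, EGR1 alone held a CArG box in this window. Its promoter, at chr5:138465229-138465478 on the plus strand of GRCh38.p14, has 2 of them in capitals. A CArG box stood in 1.08% of tested genes' promoters. CCN1 had no promoter entry, so it was not searched.
EGR1: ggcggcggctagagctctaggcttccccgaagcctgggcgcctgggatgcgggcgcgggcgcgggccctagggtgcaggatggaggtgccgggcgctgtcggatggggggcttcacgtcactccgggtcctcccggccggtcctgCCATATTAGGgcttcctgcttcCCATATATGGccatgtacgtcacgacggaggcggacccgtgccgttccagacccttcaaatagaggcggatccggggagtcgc
The genes of the factors themselves were not called. SRF had 84.7 and 84.7 CPM at 2 h and 74.5 and 69.1 CPM at 6 h (log2 fold change -0.24, SE 0.07, adjusted p = 0.139), and MRTFA had 78.5 and 74.6 CPM and then 68.5 and 71.5 CPM (-0.13, adjusted p = 0.547). MRTFB groups overlapped. Of 25 cytoskeletal targets of MRTF and SRF, such as the tropomyosin gene TPM4, none passed between 2 h and 6 h, at a median of -0.04. In both pairs 13 were lower and 5 higher, beside 29.7% and 30.1% of all genes. Between 6 h and 24 h, a comparison that shares the 6 h libraries, 18 of the 25 fell and none rose. Over all genes 12.2% fell and 9.94% rose there with the block.

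Several genes of adhesion and the matrix fell, described here gene by gene since the matrix list itself had 1 fall and 1 rise among 26 (median -0.04). ITGA5 (ENSG00000161638), the alpha chain of the main fibronectin receptor, had 1066 and 1162 CPM at 2 h and 563 and 651.8 CPM at 6 h. The 6 h libraries were far below the 2 h libraries, and the log2 fold change was -0.87 (SE 0.11, adjusted p = 0.000901 with the block and 0.0642 without it). ANGPTL2 (ENSG00000136859), a secreted angiopoietin-like protein, fell from 38.6 and 40.3 CPM to 19.99 and 23.4 CPM (log2 fold change -0.86, SE 0.11, adjusted p = 0.000901). It was 1 of the 2 genes called without the block as well (adjusted p = 0.0355). CCN1, a matrix-bound regulator that YAP and SRF are known to control, had 117.9 and 99.5 CPM at 2 h and 63.2 and 74.6 CPM at 6 h (log2 fold change -0.66, SE 0.11, adjusted p = 0.00558). Its close relative CCN2 overlapped between the groups, at 146.6 and 116.8 CPM and then 111.4 and 132.9 CPM (adjusted p = 0.766). EFEMP1, a fibulin, fell from 74.3 and 85.0 CPM to 49.0 and 59.9 CPM (log2 fold change -0.55, adjusted p = 0.00541). MMP14, a membrane-bound collagenase, the junction gene JAM3 and the protease gene ADAMTS12, named after their values were seen, fell by 0.48, 0.44 and 0.39 on the log2 scale.

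A matrix gene rose, as did a gene of collagen processing that was listed with glycolysis and hypoxia genes. LAMB1, the laminin beta 1 chain, rose from 778.7 and 798.6 CPM to 1024 and 1019 CPM (log2 fold change 0.37, SE 0.06, adjusted p = 0.00604), and P4HA2, which hydroxylates collagen prolines, from 236.7 and 248.6 CPM to 329.7 and 329.4 CPM (0.44, adjusted p = 0.0165). Neither overlapped. In the list of 26 matrix genes, LAMB1 was the 1 that rose and EFEMP1 the 1 that fell, and in the list of 24 YAP and TAZ targets CCN1 was the only call. The Notch receptor gene NOTCH1 and the gene of its ligand JAG1 went opposite ways. NOTCH1 rose from 119 and 87.6 CPM to 170.1 and 146.3 CPM (log2 fold change 0.62, SE 0.09, adjusted p = 0.00186), and JAG1 fell from 159.7 and 187.2 CPM to 105.1 and 136.1 CPM (-0.53, SE 0.09, adjusted p = 0.00813).

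Several genes for enzymes of sugar chain synthesis fell, described here one by one. CHPF2 (ENSG00000033100), which helps to polymerise chondroitin sulfate, had 178.6 and 196.4 CPM at 2 h and 110.1 and 114.1 CPM at 6 h, after 286.1 and 275.2 CPM in untreated cells. Its fall of -0.74 on the log2 scale (SE 0.08) passed with the block (adjusted p = 0.000398) and without it (0.0141). Without the block, both CHPF2 and ANGPTL2 lost their call when any 1 of the 4 libraries was left out. Its paralog CHPF fell from 499.5 and 499.3 CPM to 346 and 377.6 CPM (-0.46, adjusted p = 0.0453), and CHST14, which sulfates dermatan, from 36.7 and 37.3 CPM to 23.7 and 27.0 CPM (-0.55, adjusted p = 0.0124). These were the 3 of 32 glycosaminoglycan genes that passed, and the list as a whole was centred at -0.03, with 14 members higher and 15 lower in both pairs. The 3 calls fell to 1 without 2 h replicate 1, 2 h replicate 2 or 6 h replicate 1. B4GAT1, which extends the sugar chain of dystroglycan, had 38.5 and 36.8 CPM and then 21.6 and 22.5 CPM (-0.77, adjusted p = 0.00103). B4GALT1 and XXYLT1, a galactosyltransferase and a xylosyltransferase named after their values were seen, fell by 0.40 and 0.42.

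In the lysosome, NAGLU and SGSH, both of which degrade heparan sulfate, fell while the list stayed at a median of 0.00. NAGLU went from 31.0 and 30.9 CPM to 18.4 and 16.5 CPM (log2 fold change -0.83, SE 0.10, adjusted p = 0.000901) and SGSH from 50.02 and 44.2 CPM to 35.1 and 32.8 CPM (-0.47, adjusted p = 0.00317). They were the 2 calls among 28 lysosomal genes. ACP2, a lysosomal acid phosphatase outside the list, fell by 0.57. Few genes of the secretory pathway were called. LMAN1 and TMED9, cargo receptors between ER and Golgi, fell by 0.37 and 0.36 among 36 genes of vesicle transport. MANF, an ER-resident protein of the unfolded protein response, fell from 89.6 and 95.2 CPM to 68.8 and 72.9 CPM. Its log2 fold change was -0.38 (adjusted p = 0.0433 with the block and 0.335 without it), the only call of 22 ER chaperones. For none of the 3 did the 2 h and 6 h libraries overlap. Of 37 genes of N-glycosylation and translocation none passed, and 22 were higher in both pairs, beside 30.1% of all genes. Between 6 h and 24 h, with the 6 h libraries shared, 29 of these 37, 23 of the 36 and 17 of the 22 rose, beside 9.94% of all genes.

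SLC3A2 (ENSG00000168003), the heavy chain of several amino acid transporters, had 323.3 and 307.4 CPM at 2 h and 522.7 and 438.9 CPM at 6 h (log2 fold change 0.61, SE 0.13, adjusted p = 0.0326). It was the only call among 24 ATF4 and amino acid response genes. Its usual partner SLC7A11 had 157 and 135.3 CPM and then 178.8 and 164.7 CPM (adjusted p = 0.37). EGFR, a receptor tyrosine kinase marking dedifferentiated melanoma, rose from 84.5 and 78.9 CPM to 115.7 and 114.9 CPM (0.50, SE 0.08, adjusted p = 0.0056). Of the 19 listed genes of that state it was the 1 that rose, while CCN1 fell. That list had a median of -0.01, with 6 members higher and 7 lower in both pairs. EPHA2, an ephrin receptor, and LIF, a cytokine of the interleukin 6 family, rose by 0.35 and 0.39. They were the 2 calls among 19 genes of MAPK output, and without the block their adjusted p was 0.796 and 0.44. TIPARP, an ADP-ribosyltransferase known as a target of the aryl hydrocarbon receptor, rose from 68.8 and 90.4 CPM to 115.8 and 115.3 CPM (0.55, SE 0.09, adjusted p = 0.00604) as the only call among 7 such genes. Of these 7, 4 were lower and 2 higher in both pairs, at a median of -0.03. RAB38, which serves melanosome traffic, rose by 0.50 as the only call among 15 melanocyte genes.

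The remaining genes with large rises covered membrane proteins, lipid regulators and adaptors. ENTREP1, an endosomal membrane protein, went from 5.65 and 5.33 CPM to 10.7 and 10.9 CPM (log2 fold change 0.97, SE 0.19, adjusted p = 0.0164), after 0.989 and 0.877 CPM at 0 h. SUSD5 went from 17.4 and 19.9 CPM to 31.2 and 37.1 CPM (0.87, adjusted p = 0.00375), and INSIG2, which holds the sterol sensor SCAP in the ER, from 33.4 and 23.8 CPM to 50.02 and 39.1 CPM (0.64, adjusted p = 0.0183). The monoamine oxidase gene MAOB, GPR155, the RNA-binding protein gene SAMD4A, the sorting nexin gene SNX25, the axon guidance gene NAV3, the protocadherin gene PCDH1, C2orf72 and LINC03047 rose by 0.60 to 0.92 on the log2 scale. They were chosen among genes without overlap between the groups. Among the falls, GPAM, which starts glycerolipid synthesis, had 59.0 and 78.7 CPM and then 30.6 and 49.1 CPM (-0.80, SE 0.14, adjusted p = 0.00715). PCDHA7 and the homeobox gene PKNOX2 fell by 0.85 and 0.80, and PXK by 0.60. The PCDHA genes share 3′ exons, so the value of PCDHA7 is uncertain.

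Few cell cycle and biosynthesis genes were called at this step. Of 26 genes of G1/S and DNA replication none passed, at a median of 0.01. Of 25 mitotic genes 1 fell, with 17 lower and 2 higher in both pairs, beside 29.7% and 30.1% of all genes. It was the phosphatase gene CDC25B (-0.27, adjusted p = 0.0382 with the block and 0.481 without it). None of 31 ribosome biogenesis genes, 30 proteasome subunits, 20 aminoacyl-tRNA synthetases, 24 NRF2 targets, 23 cholesterol synthesis genes or 23 interferon-stimulated genes passed. The ribosome biogenesis list had 19 members lower and 8 higher in both pairs, at a median of -0.06. Between 6 h and 24 h, all 26 replication genes, 22 of the 25 mitotic genes and 28 of the 31 ribosome biogenesis genes fell, beside 12.2% of all genes. In the lists of 24 glycolysis and hypoxia genes and of 23 p53 targets, the single calls were P4HA2 and BTG2. Their adjusted p without the block was 0.235 and 0.447. Of the 24 glycolysis and hypoxia genes, 18 were higher and 4 lower in both pairs, at a median of 0.12. None of the 10 tested markers of other cell types passed, at a median of 0.13.

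**Figure D2:**
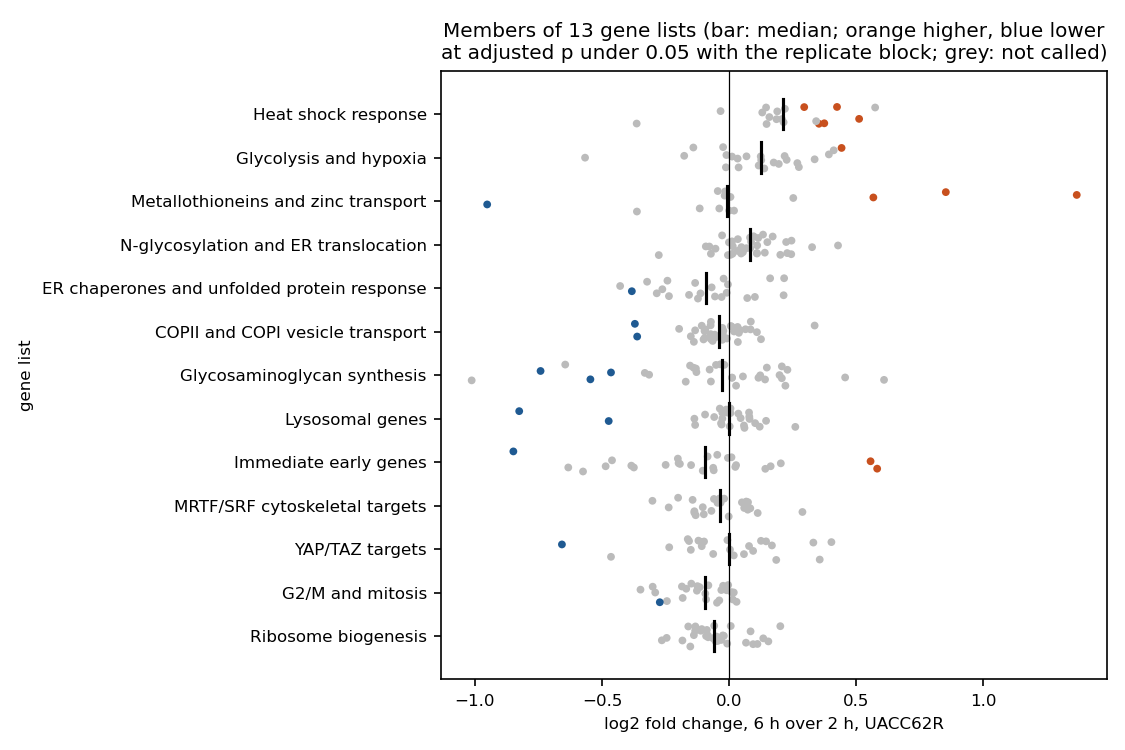
Log2 fold change at 6 h against 2 h in UACC62R, fitted without the block, for the tested members of 13 gene lists. Each point is 1 gene, with the list median as a bar. Orange and blue points were called higher and lower with the replicate block, and heat shock genes have the highest median, 0.21, while most members of every list are grey, that is, not called.

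Most changes that were called upward between 2 h and 6 h turned back by 24 h. Of the 77 genes that rose, 44 fell between 6 h and 24 h, 9 rose further and 24 did not pass, while over all genes 12.2% fell and 9.94% rose in that comparison with the block. It shares the 6 h libraries, and the overlap was not tested. MT1X is an example of a peak, at 206.8 and 160.5 CPM at 24 h after its 6 h level of 558.4 and 505.8 CPM. MT1G returned to 10.0 and 9.12 CPM and ENTREP1 to 4.03 and 5.33 CPM, both close to their 2 h level. All 5 heat shock genes that rose were in this class, and 17 of the 18 on the list fell between 6 h and 24 h. The 9 that rose further were LAMB1, MACO1, NR4A2, P4HA2, PTPRZ1, SLC3A2, SNX14, TFAP2C and TIPARP. LAMB1 reached 1697 and 1518 CPM at 24 h, and SLC3A2 607.6 and 657.3 CPM.

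Of the 71 genes that fell, 39 did not pass between 6 h and 24 h, 19 rose again and 13 fell further. CCN1 fell further, to 19.0 and 23.2 CPM, a log2 change of -1.71 from 6 h, and EFEMP1 to 18.6 and 17.8 CPM. ITGA5 fell to 408.4 and 356.8 CPM. The other 10 that fell further were ADAMTS12, ADPGK, ANGPTL2, CHPF, EPDR1, FOXRED2, JAG1, JAM3, MMP14 and RCN1. CHPF2 and SLC39A10 were not called after 6 h, at 126.3 and 117.8 CPM and at 22.6 and 23.8 CPM. GPAM and MANF were among the 19 that came back up.

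**Figure D3:**
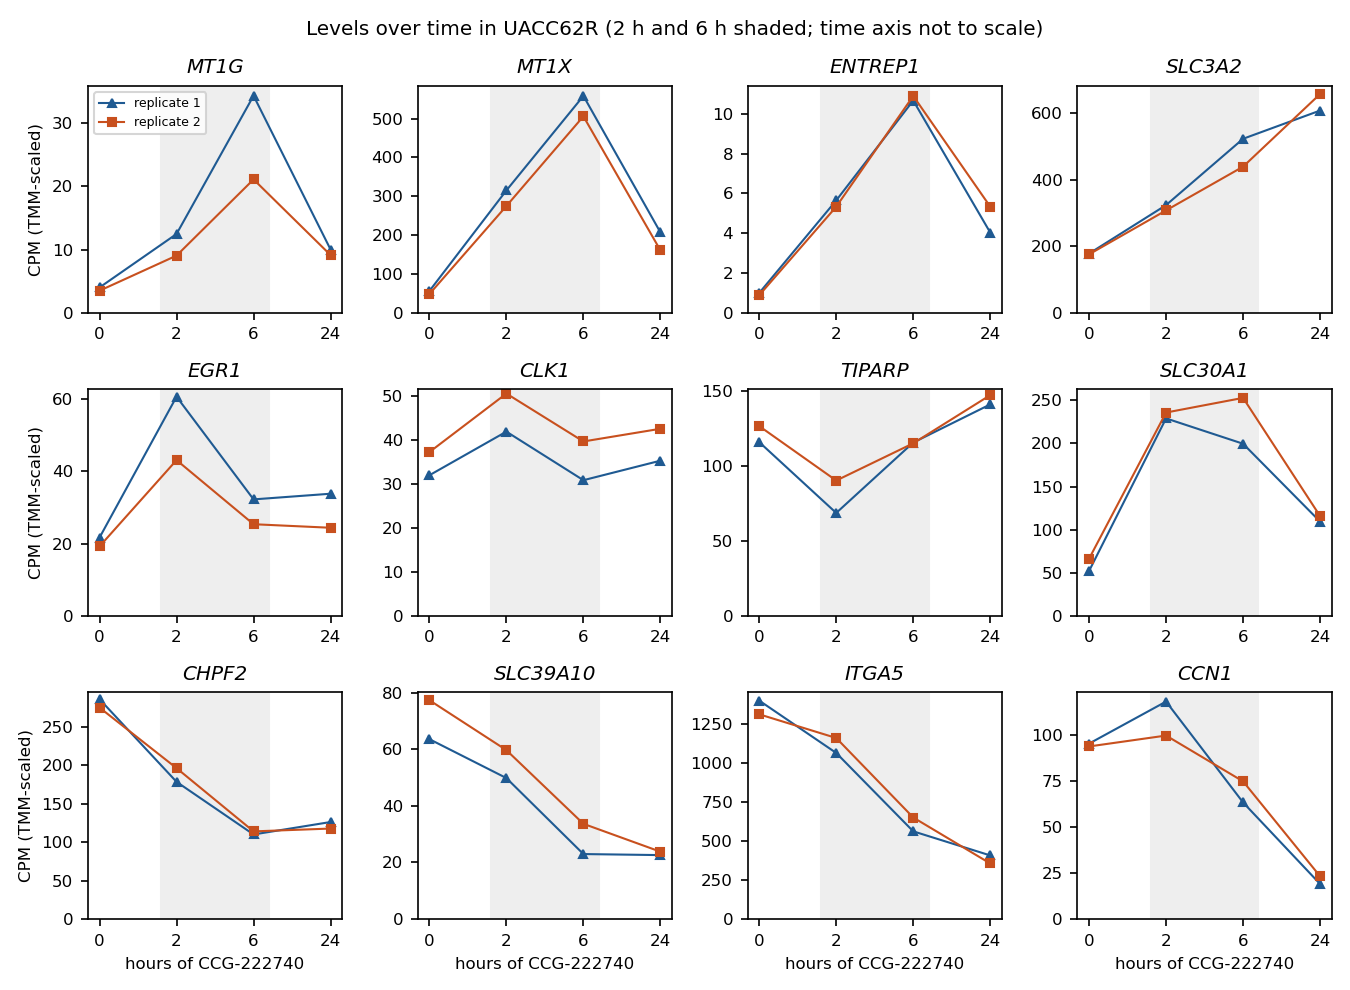
Level of 12 named genes in UACC62R at 0, 2, 6 and 24 h of CCG-222740 (hours, not drawn to scale; CPM, scaled by TMM), 1 line per replicate, with the 2 h and 6 h libraries shaded. MT1G, MT1X and ENTREP1 are highest at 6 h, SLC3A2 goes on rising to 607.6 and 657.3 CPM, EGR1 and CLK1 are highest at 2 h, and ITGA5 and CCN1 are lowest at 24 h.

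Seen from the first step, most early genes had no further call by 6 h. With the block, 48 genes were higher at 2 h than at 0 h (0.237%) and 26 lower (0.128%), a comparison that shares the 2 h libraries. The 0 h libraries were registered apart from all treated ones. Any difference in batch or in vemurafenib would therefore coincide with treatment wherever 0 h levels are compared here. Its part in these calls was not tested. Of the 48, 13 rose again between 2 h and 6 h, 3 fell and 32 did not pass. The 13 that grew were MT1G, MT1X, MT2A, MT1P3, HSPA8, FKBP4, SLC3A2, LAMB1, NOTCH1, ENTREP1, KLHL23, MACO1 and LINC03047. Among those that decayed were EGR1 and the splicing kinase gene CLK1, which went from 41.9 and 50.6 CPM to 30.9 and 39.7 CPM. Of the 26 lower at 2 h, CHPF2, SGSH and ADAMTS12 fell again, and BTG2, TFAP2C and TIPARP rose. TIPARP had started at 116.1 and 126.8 CPM, dipped at 2 h, was at 115.8 and 115.3 CPM at 6 h and reached 141.3 and 147.5 CPM at 24 h. TFAP2C, a transcription factor gene, had 97.5 and 88.2 CPM at 0 h, 66.0 and 59.9 CPM at 2 h and 100.1 and 71.2 CPM at 6 h.

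ZBTB2, a zinc finger gene, had 26.5 and 29.9 CPM at 0 h, 49.1 and 50.1 CPM at 2 h and 38.1 and 41.2 CPM at 6 h (log2 fold change between 2 h and 6 h -0.32, adjusted p = 0.0913). HMOX1, which breaks down haem, had 439.4 and 353.9 CPM at 2 h and 389.9 and 405.1 CPM at 6 h, with overlap, and was not called at 2 h against 0 h either (adjusted p = 0.0828 with the block). DNAJC3, an ER cochaperone, had dropped from 57.0 and 61.2 CPM to 25.8 and 25.7 CPM in the first 2 h and stood at 20.4 and 20.8 CPM at 6 h (adjusted p = 0.171). MOGS, the first trimming glucosidase of N-glycans, and the phosphatase gene MINPP1 had 49.4 and 52.0 CPM and 17.9 and 22.8 CPM at 2 h, and 41.1 and 42.6 CPM and 16.1 and 17.5 CPM at 6 h, with adjusted p of 0.137 and 0.273. VEGFC, a lymphangiogenic factor, had 60.7 and 66.1 CPM and then 70.9 and 73.0 CPM (adjusted p = 0.366).

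The parental line gives a view of the same step in libraries other than those compared. They were part of the fit of 15 libraries, so they helped to set the spread and the replicate term behind the calls. UACC62P had 1 usable library at 2 h, replicate 2, and 2 at 6 h. Of the 77 genes that rose in UACC62R, 67 had a log2 fold change above 0 in UACC62P (87.0%, beside 52.1% of all genes), and of the 71 that fell, 60 were below 0 (84.5%, beside 45.7%). The median changes there were 0.30 and -0.30, against 0.50 and -0.42 in UACC62R. These signs and medians are from the fit without the block. Using replicate 2 alone in UACC62P, 67 and 66 had the same sign as the calls in UACC62R, which rest on both replicates. Called in UACC62P with the block were 15 of the 77 and 15 of the 71 in the same direction, where the whole table had 0.316% called higher and 0.296% lower. MT2A went from 380.4 CPM to 895.4 and 1098 CPM in UACC62P, and SLC39A10 from 40.5 CPM to 15.9 and 15.4 CPM. CCN1 was an exception, at 7.42 CPM and then 8.89 and 7.13 CPM.

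The difference between the lines was tested directly as the change in UACC62R minus that in UACC62P. No gene passed without the block (0%; 837 at an unadjusted p under 0.05, and 3 with DESeq2), and 1 passed with it (0.00493%), TNFRSF12A. For the genes described above, therefore, a difference between the lines was not shown. Between 6 h and 24 h in UACC62P, 26 of the 77 fell and 5 rose, where 2.71% of all genes fell and 2.34% rose with the block. Of the 71, 10 fell and 5 rose there.

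**Figure D4:**
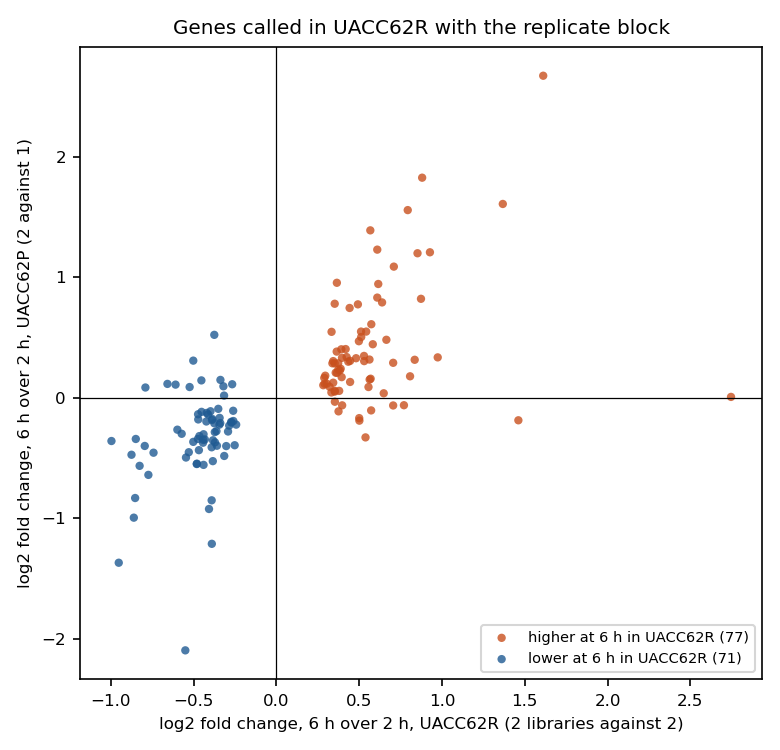
Log2 fold change at 6 h against 2 h in UACC62P (2 libraries against 1) over that in UACC62R (2 against 2) for the 77 genes called higher (orange) and the 71 called lower (blue) in UACC62R with the replicate block. Of these, 67 and 60 lie on the same side of 0 in both lines. The fold changes drawn are those of the fit without the block.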

How the data were processed

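Stranded poly(A) RNA libraries were read as single 50 bp reads, per the labels' protocols. The submitters' processing notes name bcl2fastq 2.19.0, FastQC 0.11.5, Trimmomatic 0.33, HISAT2 2.1.0, HTSeq 0.6.1 and hg19. The authors deposited raw read counts per gene, 63677 Ensembl IDs in each file, with no normalization. Whether counting used strand is not stated in those notes or labels, so antisense overlaps are uncertain. The 5 summary lines of each file were dropped. In the 4 libraries, 18.8 to 20.6% of reads aligned to more than 1 place.

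Counts of 15 libraries were scaled by TMM, kept by filterByExpr (20280 genes) and fitted with 1 coefficient per group in edgeR 4.0.16 (limma 3.58.1, R 4.3.3) with 7 residual degrees of freedom. The quasi-likelihood F test was adjusted by Benjamini-Hochberg over all genes, and called means under 0.05. A further fit had the replicate number as a block (6 degrees of freedom). No label pairs the libraries by these numbers. They were taken as pairs because deviations from the group means correlated in all 6 pairs of UACC62R groups (0.65 to 0.72, and 0.67 for 2 h and 6 h) and in the 15 pairs that include a UACC62P group (0.17 to 0.55). Replicates of 1 group differed beyond sampling noise (chi-square per degree of freedom 10.9 at 2 h and 13.3 at 6 h). DESeq2 1.42.0 was an alternative. The fit was also run on simulated counts with a replicate effect shared by all groups. That run took the pairing as given and could not test it. CPM values are TMM-scaled. Fold changes of single genes in UACC62R are those of the fit with the block unless stated otherwise. The medians of gene lists and the fold changes in UACC62P, with their signs and medians, are from the fit without it.

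Named genes were the 15 each way with the largest log2 fold change among those called (mean log2 CPM of at least 2, no overlap between groups), taken without the block first and then from the fit with it, called members of 29 gene lists, and a set of early genes. A result for 1 of these genes is not reported here. The members and lists were chosen with earlier results of these data known. Pseudogenes were passed over when the largest changes were taken. Promoters came from RefSeq (GRCh38.p14), matched by symbol.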

Additional observations from a re-analysis of the deposited data

Results flagged for a closer look

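TNFRSF12A, the receptor for the cytokine TWEAK, was the 1 gene whose step from 2 h to 6 h differed between the lines by a test of the difference itself, with the replicate block. In UACC62R it had 349.3 and 412 CPM at 2 h and 340.3 and 368.6 CPM at 6 h, with overlapping groups. In UACC62P it had 96.4 CPM in the 1 library at 2 h and 132.7 and 145.2 CPM at 6 h, both above it. The change in UACC62R minus that in UACC62P was -0.693 on the log2 scale (SE 0.096, edgeR's quasi-likelihood test, adjusted p = 0.0245 with the block). Without the block it was -0.63 with an adjusted p of 1, and the UACC62P side rests on a single 2 h library, whose part in the difference was not tested.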

How the results depend on the processing

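The replicate block decided most calls. It moved the count between 2 h and 6 h from 2 to 148, between 6 h and 24 h from 2550 to 4491, between 0 h and 2 h from 15 to 74, and for the difference between the lines from 0 to 1. With the block in the 8 UACC62R libraries alone the first 3 counts were 615, 5733 and 185. With the block, the count between 2 h and 6 h was 99 in the 11 treated libraries, 169 with RLE scaling, 149 with library size alone and 269 with DESeq2, and 13, 50, 43 and 32 without 6 h replicate 1, 6 h replicate 2, 2 h replicate 1 and 2 h replicate 2, fits that were chosen after seeing the data.

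Without the block, the count between 2 h and 6 h was 5 (1 higher, 4 lower) with library size alone, 192 with no filter on low counts, 61 with DESeq2, and 0 in the 8 UACC62R libraries, in the 4 libraries alone and in all 16. It ranged from 0 to 3 with 1 library left out. Unadjusted p values under 0.05 numbered 1159, 1154 and 399 in the last 3 fits. The count between 6 h and 24 h was 1048 in its 4 libraries and 158 in all 16, and from 964 (without 6 h replicate 2) to 2468 with 1 library left out. Between 0 h and 2 h it was 123 with no filter, 43 with DESeq2, 0 in all 16 libraries and 5 (without 2 h replicate 1) to 16 with 1 left out. For the difference between the lines it was 71 with no filter and 3 with DESeq2. Fits of 4 or 8 libraries were not applicable to that difference. The cause of these shifts was not tested.

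Of 96 genes taken for naming, 88 kept their sign in all 23 fits. Those that did not were CCN2, HMOX1, HSPA1B, HSPD1, MRTFB, RAB20, SLC30A1 and TNFRSF12A, none called between 2 h and 6 h with the block. The fits share libraries, so a kept sign is no independent support.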
